A study of Mus musculus with 48 samples.

Results

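Adiponectin (ADIPOQ), adipsin (CFD), resistin (RETN), angiotensinogen (AGT) and leptin (LEP) are 5 proteins that fat cells release, and their transcripts were followed through adipogenesis with and without PPARγ. All probes carrying 1 of these 5 names were taken, which gave 5 probes, 1 for each gene, out of 24613 probes under 18991 gene symbols. The rule names the genes and uses no measured value, but they were chosen with earlier results of these data known. Expression was read in 3T3-L1 cells, a mouse fibroblast-like line that turns into fat cells under a hormone cocktail, on 48 Illumina arrays. Cells received either a pool of non-targeting siRNAs (control siRNA) or a pool of siRNAs against Pparg (PPARγ KD) before differentiation, and each siRNA was sampled on day −2 and on days 0 to 6 with 3 biological replicates. Both groups were given the same treatment at confluence on day −2, IBMX with dexamethasone, and then insulin with the PPARγ agonist rosiglitazone from day 0, so that days are counted from rosiglitazone. The design text of the series names IBMX, dexamethasone and insulin, and does not mention rosiglitazone. The KD is a transient lowering of the transcript in a cell line and not a deletion, and the control cells carry a transfected siRNA pool as well.

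PPARγ is a nuclear receptor that binds DNA as a heterodimer with RXR at direct repeats spaced by 1 base (DR-1) and is required for the formation of fat cells. Fat cells are also endocrine cells. Adiponectin raises insulin sensitivity in liver and muscle, leptin reports fat stores to the hypothalamus, and resistin is a small cysteine-rich hormone made by mouse adipocytes. Adipsin is complement factor D, the serine protease that cleaves factor B in the alternative pathway of complement. Angiotensinogen is the substrate of renin and the precursor of angiotensin II. Leptin is known to be low in cultured 3T3-L1 adipocytes compared with fat tissue.

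In the mouse assembly GRCm38.p6 (RefSeq), the genes lie at chr16:23146536-23157968 (Adipoq), chr10:79890853-79892655 (Cfd), chr8:3655770-3659818 (Retn), chr8:124556587-124569706 (Agt) and chr6:29060221-29073876 (Lep). For all 5, RefSeq's promoter table held the 250 bases before the start site. These were searched on both strands for the PPARγ/RXR core AGGTCA, for the full DR-1 element, exact or with 1 mismatch, for CCAAT and TATAAA, the boxes bound by NF-Y and TBP, and for TTGCNNAA, a core of sites for C/EBP factors. No AGGTCA and no DR-1 was in any of the 5 windows. Among 32851 promoters of this length 14% held AGGTCA, 0.0335% an exact DR-1 and 0.484% a DR-1 with 1 mismatch. These letters are only absent from these short windows, and sites further away were not searched. The promoters of Cfd and Retn held none of the patterns. The other 3 promoters are printed 5′ to 3′ because each holds a match, which is in capitals.

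Adipoq, plus strand, chr16:23146286-23146535: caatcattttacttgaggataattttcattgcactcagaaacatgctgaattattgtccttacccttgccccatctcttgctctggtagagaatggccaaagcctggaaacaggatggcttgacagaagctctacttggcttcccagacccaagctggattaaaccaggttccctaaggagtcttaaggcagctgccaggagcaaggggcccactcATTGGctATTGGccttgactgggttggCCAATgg
Agt, minus strand, chr8:124569707-124569956: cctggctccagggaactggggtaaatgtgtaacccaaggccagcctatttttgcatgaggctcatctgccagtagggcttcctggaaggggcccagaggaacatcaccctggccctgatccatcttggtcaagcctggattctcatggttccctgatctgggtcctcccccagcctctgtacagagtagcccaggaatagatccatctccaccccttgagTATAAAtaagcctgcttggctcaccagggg
Lep, plus strand, chr6:29059971-29060220: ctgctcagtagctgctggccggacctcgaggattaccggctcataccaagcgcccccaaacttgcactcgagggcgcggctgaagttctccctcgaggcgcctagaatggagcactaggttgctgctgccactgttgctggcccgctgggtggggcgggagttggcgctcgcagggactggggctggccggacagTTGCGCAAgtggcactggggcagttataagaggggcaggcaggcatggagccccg

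In the Adipoq promoter the capitals mark CCAAT 3 times, 2 of them on the minus strand (printed as ATTGG), with first bases 34, 27 and 7 bases before the start site. A CCAAT was in 33.8% of all promoters. In the Agt promoter they mark TATAAA with its first base 30 bases before the start, a pattern found in 12.4% of promoters. In the Lep promoter they mark TTGCGCAA, which reads the same on both strands and starts 55 bases before the start site, and 9.56% of promoters held TTGCNNAA. No pattern searched was shared by any 2 of the 5 windows, and a match is a description of the letters and not of a bound site.

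The authors deposited bead intensities that had not been normalized, between 15.4 and 67066.3, with a detection score for each probe and array, and a probe is called above background here at a detection p under 0.01. Between 33.4% and 40.4% of probes on an array were above background, from 33.4% to 35.4% in replicate 3 and from 36.8% to 40.4% in replicates 1 and 2. Levels are given as normalized log2 signals, differences are PPARγ KD minus control siRNA, and a gene is called at an adjusted p of at most 0.05 (limma, Bonferroni over the 24613 probes). The number of arrays, 3 for each siRNA and day, limits the precision of each value. Pairs of arrays share day and replicate number, and for replicates 1 and 2 the number may not mark a shared experiment. The targeted Pparg transcript, read by its brightest probe, was lower in the KD in 24 of 24 pairs of arrays, with means of 11.42 and 9.08 over the 8 days and a log2 difference of −2.34 (SE 0.04, adjusted p = 9.48e-34). The fitted log2 difference over all days was −2.51 and −1.21 at its other 2 probes. These were above background on 5 and 0 of 24 KD arrays, so the values are not measured sizes. At the last of them the fitted difference was 0.0004 on day −2, with all arrays below background, and −2.86 on day 5. The Pparg signal of the brightest probe still climbed from 7.68 on day −2 to 9.78 on day 6 in the KD, beside 10.09 to 12.11 in control cells, and the difference lay between −2.63 and −1.93 on every day. Of 10 adipocyte markers such as FABP4, PLIN and CIDEC, 10 were called lower in the KD over all days, beside 6.74% of all probes (median log2 difference −2.50). This median is a fitted value, since FABP4, PLIN, CEBPA and SLC2A4 were above background on no KD array. On day 6, 9 of the 10 were called lower (3.09% of all probes). FABP4, above background on 12 of 24 control arrays, was not. Of 8 preadipocyte or fibroblast markers, 5 were called higher over all days, beside 6.37% of all probes (median 0.35 for the 8). For DLK1, COL3A1, THY1, PDGFRB and FN1, the 5 called, the difference on day 2 was 0.92, 0.90, 0.97, 1.03 and 1.42. On day 6 it was 0.40, 0.43, 0.34, 0.32 and −0.31, and none of them was called on that day. The log2 of the summed signal of the 10 adipocyte markers spanned 10.73 to 16.64 in control arrays and 10.72 to 13.98 in KD arrays. For the 8 fibroblast markers it spanned 15.79 to 16.73 and 16.30 to 16.87. The brightest markers weigh most in such a sum. No marker of macrophages, muscle or endothelium was called (0 of 13), with 1, 2 and 1 at an unadjusted p under 0.05 in the 3 lists, and EMR1, CD68, CSF1R, PTPRC, MYOD1, MYOG, DES and the 4 endothelial markers were above background on no array. In these bulk samples fewer fat cells and less RNA for each fat cell cannot be told apart, and the part of the adipocyte share in the results on the 5 secreted proteins was not tested.

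Over the 8 days all 5 secreted protein transcripts were called lower in the PPARγ KD, where 6.74% of all probes were called lower and 6.37% higher. The mean log2 difference was −3.74 for ADIPOQ (SE 0.08), −3.05 for CFD (SE 0.07) and −2.36 for AGT (SE 0.06), with adjusted p-values of 3.275e-30, 3.077e-29 and 9.287e-27. The spread of this mean between the 3 replicates was 0.24, 0.16 and 0.25 (SD, n = 3), and the means include days on which the KD arrays were below background. The SEs and p-values treat arrays of different days as independent, apart from a shared shift for each replicate. They do not measure this spread. RETN passed the test as well (adjusted p = 4.787e-14), with 15 of 24 control arrays above background and no KD array. So did LEP (adjusted p = 2.353e-10), but of 24 control arrays 1 was above background for it and of 24 KD arrays 0. No measured size over all days can therefore be given for RETN and LEP. KD was lower than control in 24 of 24 pairs for ADIPOQ and AGT, in 23 for LEP, in 22 for CFD and in 21 for RETN, and the pairs that went the other way came from days on which both arrays were below background.

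**Figure D1:**
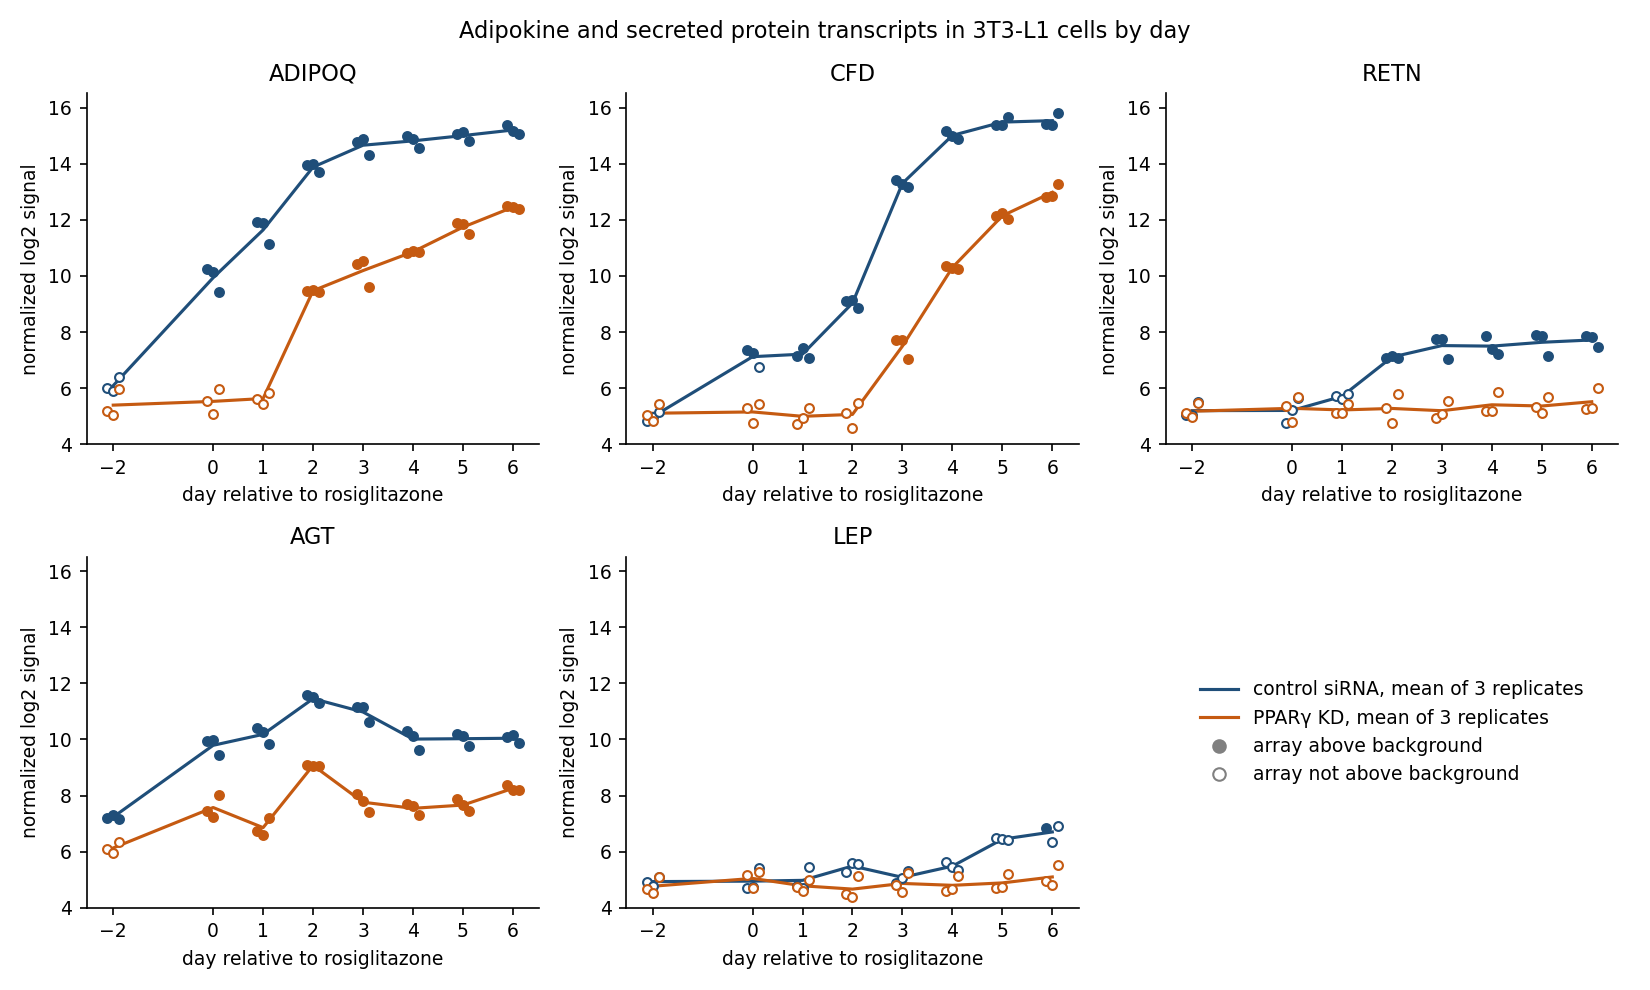
Normalized log2 signal (y axis) of the 5 transcripts by day relative to rosiglitazone (x axis). Points are single arrays, filled where the probe was above background, and lines join the means of 3 replicates under control siRNA (blue) and PPARγ KD (orange); on day 6 the control means are 15.20 for ADIPOQ, 15.53 for CFD, 7.72 for RETN, 10.04 for AGT and 6.70 for LEP, each above its KD mean.

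ADIPOQ, the adiponectin gene, rose early in control cells and late in the PPARγ KD. On day −2 it was below background on all 6 arrays, between 5.90 and 6.38 under control siRNA and between 5.03 and 5.98 in the KD. Under control siRNA the 3 replicates read 10.23, 10.15 and 9.42 on day 0, then 11.91, 11.89 and 11.12 on day 1, and 13.94, 14.00 and 13.69 on day 2. They went on to 14.76, 14.89 and 14.32 on day 3 and to 15.00, 14.87 and 14.56 on day 4. Day 5 gave 15.05, 15.13 and 14.82, and day 6 gave 15.37, 15.17 and 15.05. The order of the control means followed the days from first to last, but the replicates of neighbouring days overlapped from day 3 on.

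In the KD, ADIPOQ stayed below background on all 9 arrays of days −2, 0 and 1, with no array over 5.98. It was above background on all 3 arrays from day 2, with 9.47, 9.50 and 9.44, and reached 10.43, 10.52 and 9.62 on day 3 and 10.83, 10.90 and 10.85 on day 4. The KD replicates read 11.87, 11.84 and 11.51 on day 5, then 12.50, 12.46 and 12.39 on day 6. The KD cells on day 6 were thus above the control cells of day 1 and below those of day 2, and control and KD replicates did not overlap on any day from day 0 to day 6. Day 0 control cells had had IBMX and dexamethasone but no rosiglitazone. ADIPOQ was called lower in the KD on each of these 7 days, with adjusted p-values from 2.397e-21 on day 1 to 4.138e-10 on day 6.

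Where all arrays of 1 group were below background, a fold is a lower bound for the background-corrected signals. It sets the mean of the brighter group against a floor for the dimmer one, which on each array is the larger of the probe's signal and the lowest signal that counted as above background, averaged over the arrays. By this measure ADIPOQ was at least 10.7-fold lower in the KD on day 0, and at least 35.5-fold on day 1. Without background correction the log2 difference was −3.03 on day 0 and −4.60 on day 1, both smaller than these bounds. From day 2 both groups were measured. Control cells then held 21.2 times the KD signal on day 2, 22.1 times on day 3, 15.5 times on day 4, 9.60 times on day 5 and 6.73 times on day 6. The interval of the log2 difference on day 6 (−3.21 to −2.29) did not overlap that on day 2 (−4.86 to −3.95).

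CFD, the adipsin gene, had its main rise in control cells between days 2 and 4, later than ADIPOQ. All 6 arrays of day −2 were below background, from 4.84 to 5.44. Control cells read 7.36, 7.26 and 6.75 on day 0, the last of these below background, and 7.14, 7.44 and 7.06 on day 1. The control replicates of days 0 and 1 overlapped. The signal then stepped to 9.09, 9.14 and 8.86 on day 2, to 13.42, 13.29 and 13.18 on day 3 and to 15.15, 14.99 and 14.88 on day 4. The plateau was 15.38, 15.39 and 15.67 on day 5 and 15.42, 15.39 and 15.79 on day 6, days whose replicates overlapped.

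In the KD, CFD was below background on all 12 arrays of days −2 to 2, between 4.60 and 5.48. It emerged on day 3 with 7.73, 7.71 and 7.05 and rose to 10.35, 10.28 and 10.26 on day 4. Day 5 gave 12.14, 12.25 and 12.03, and day 6 gave 12.83, 12.85 and 13.26. All 3 KD arrays of day 3 were below the control arrays of day 2, and those of day 6 were below the control arrays of day 3 except for replicate 3, at 13.26. The groups did not overlap on any day from 0 to 6, and CFD was called lower on each of them.

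The log2 difference of CFD was widest on day 3, at −5.80 (95% interval −6.20 to −5.40, adjusted p = 5.306e-23), when control cells held 55.7 times the KD signal. Without background correction the difference on this day was −5.18. The fold was 26.1 on day 4, 10.1 on day 5 and 5.87 on day 6, and the interval on day 6 (−2.95 to −2.16) did not overlap that of day 3. On the days when the KD was below background, the bound was at least 1.52-fold on day 0 (2 of 3 control arrays above background), at least 1.65-fold on day 1 and at least 5.89-fold on day 2. Without background correction the log2 difference on day 2 was −2.53, slightly smaller than this bound. On the control arrays of days 4 to 6, CFD had intensities of 23640.0 to 49316.2 and ADIPOQ of 18968.6 to 47803.7, where the brightest probe of the array was at 52645.9 to 62082.7. The part of the upper end of the scale in the smaller late differences was not tested.

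AGT, which encodes angiotensinogen, was above background in control cells from the start and peaked in the middle of the time course. Control cells read 7.22, 7.33 and 7.17 on day −2 and 9.93, 9.99 and 9.46 on day 0. They climbed from 10.42, 10.28 and 9.84 on day 1 to 11.57, 11.50 and 11.29 on day 2, with 11.15, 11.17 and 10.61 on day 3. The means then settled at 10.01, 10.03 and 10.04 on days 4, 5 and 6, with single arrays between 9.63 and 10.28. From high to low the control days were ordered 2, 3, 1, 6, 5, 4, 0 and −2, and the replicates of days 0, 1, 4, 5 and 6 overlapped between neighbours in this order.

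In the KD, AGT was below background on the 3 arrays of day −2 (6.10, 5.94 and 6.36) and above it on all 21 later arrays. It read 7.45, 7.25 and 8.03 on day 0 and 6.75, 6.61 and 7.22 on day 1, and then 9.11, 9.06 and 9.06 on day 2. Day 2 was thus the highest day under both siRNAs. The KD arrays of days 3 to 5 lay between 7.31 and 8.04, and those of day 6 read 8.37, 8.19 and 8.21. No KD array of any day reached a control array of the same day.

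AGT was the only 1 of the 5 transcripts called on day −2, the day on which the hormone treatment began. It was at least 1.68-fold lower in the KD (adjusted p = 7.886e-03), and the log2 difference without background correction was −0.61. This call was lost without background correction (adjusted p = 1), without the replicate block (0.112), with the block fitted within the day (0.128) and without replicate 1 or replicate 2 (1 in both), so it rests on the choice of fit. AGT was called lower on all later days. Its difference was −2.22 on day 0, −3.32 on day 1, −2.38 on day 2, −3.21 on day 3, −2.47 on day 4, −2.36 on day 5 and −1.79 on day 6. These correspond to control signals of 4.65, 10.01, 5.20, 9.28, 5.53, 5.15 and 3.45 times those of the KD. Without background correction the difference on day 1 was −2.59.

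RETN, the resistin gene, appeared in control cells on day 2 and was never above background in the PPARγ KD. On the 9 control arrays of days −2, 0 and 1 it was below background, from 4.77 to 5.80. Control cells read 7.09, 7.16 and 7.07 on day 2 against 7.75, 7.76 and 7.04 on day 3, while day 4 gave 7.87, 7.40 and 7.23. Days 5 and 6 gave 7.90, 7.86 and 7.14, and 7.85, 7.83 and 7.48. The control arrays of days 2 to 6 overlapped from each day to the next, with replicate 3 the lowest on every one of these 5 days.

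All 24 KD arrays were below background for RETN, between 4.75 and 6.00, and replicate 3 was the highest of the 3 on every day. RETN was called lower in the KD on days 2 to 6. Without a KD array above background only bounds can be given: it was at least 1.55-fold lower on day 2, at least 1.95-fold on day 3, at least 1.96-fold on day 4, at least 2.13-fold on day 5 and at least 2.35-fold on day 6. The call was lost on day 2 without replicate 1 (adjusted p = 0.194) or without replicate 2 (adjusted p = 1), on day 4 without replicate 1 (0.288) and on day 6 without replicate 1 (0.0639).

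LEP, the leptin gene, stayed near the limit of the arrays. It was above background on 1 array of 48, control replicate 1 of day 6. The control intensities on day 6 were 224.4, 162.2 and 180.6, beside 92.5, 97.7 and 85.4 in the KD, and the groups did not overlap. LEP was called lower on day 6 (adjusted p = 9.41e-09), at least 1.16-fold. On day 5 the control intensities were 187.5, 181.4 and 158.7 and those of the KD 84.4, 92.0 and 68.9. The test passed on that day too (adjusted p = 2.191e-08), but all 6 arrays were below background, with control detection scores of 0.989, 0.988 and 0.978 where more than 0.99 is needed, so no fold is given. On days −2 to 4 the normalized signals of both groups lay between 4.37 and 5.65 and LEP was not called on any of these days, with adjusted p = 0.0538 on day 2.

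**Figure D2:**
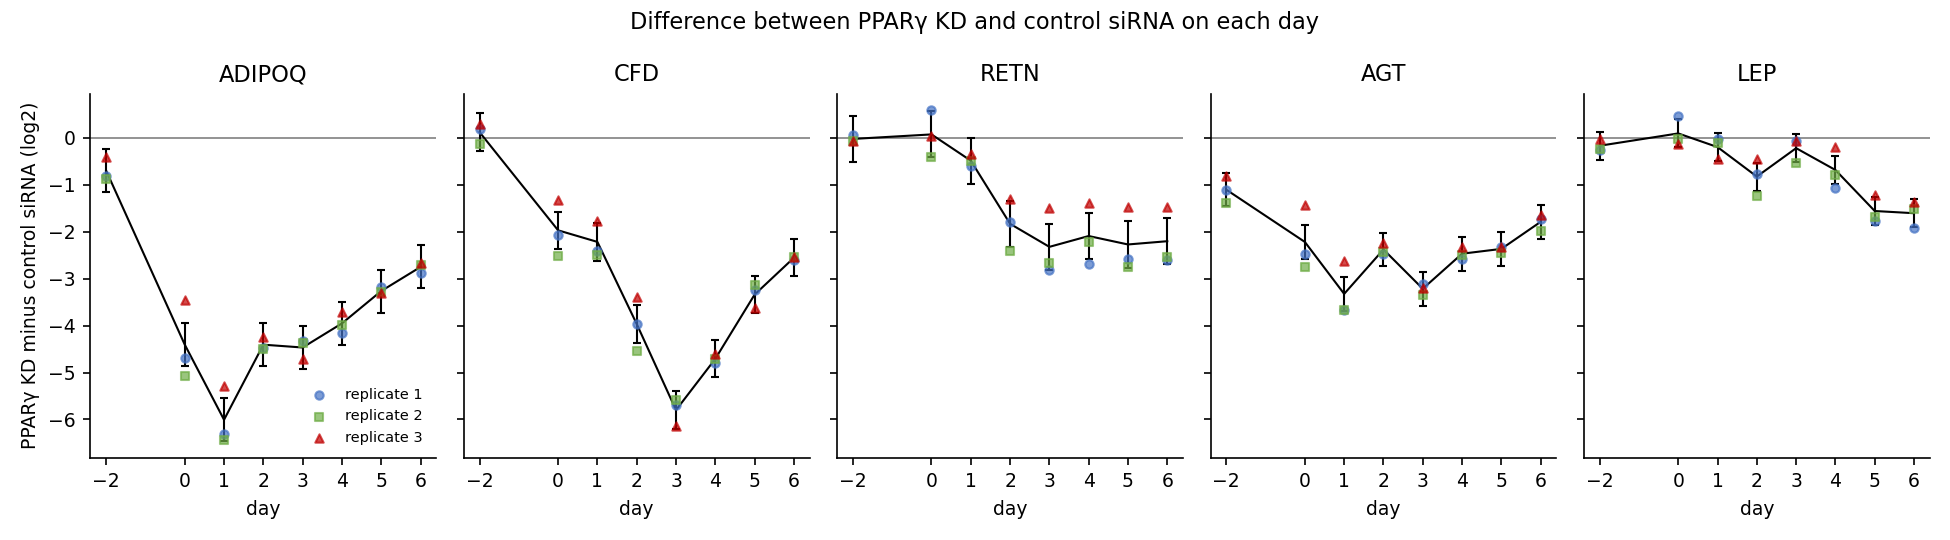
Log2 difference, PPARγ KD minus control siRNA (y axis), by day (x axis) for each transcript. Symbols are the 3 replicate pairs, the line joins the fitted differences and bars are 95% intervals of the fit; CFD is lowest on day 3 (−5.80). Values for RETN and LEP, and those for ADIPOQ before day 2, CFD before day 3 and AGT on day −2, rest on KD arrays below background and are not measured sizes.

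Counted by day, 1 of the 5 transcripts was called lower on day −2, where 0.674% of all probes were, and 3 on day 0 (1.37% of probes) and on day 1 (1.49%). The count was 4 on day 2 (4.18%), day 3 (2.29%) and day 4 (2.13%), and 5 on day 5 (2.68%) and day 6 (3.09%). None of the 5 was called higher in the KD on any day. ADIPOQ, CFD and AGT made up the 3 of days 0 and 1, RETN joined them on day 2 and LEP on day 5. The size of the difference changed over the days for all 5 (moderated F-test, 7.11% of probes called), with adjusted p = 1.154e-16 for CFD, 3.069e-12 for ADIPOQ, 2.807e-06 for LEP, 4.179e-06 for RETN and 3.202e-05 for AGT. Without replicate 1 the F-test called 2 of the 5 and without replicate 2 it called 3. RETN and AGT were lost in both cases (adjusted p = 1 for each without replicate 1, and 0.183 and 0.340 without replicate 2), and LEP without replicate 1 (0.691) and without the replicate block (0.338).

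The steps between neighbouring days under control siRNA date each rise. From day −2 to day 0 ADIPOQ rose at least 11.6-fold, CFD at least 1.65-fold and AGT by 2.56 on the log2 scale, 3 of 5 called where 4.01% of probes were called higher. Without background correction ADIPOQ rose by 2.78 on the log2 scale in this step, less than its bound. From day 0 to day 1 only ADIPOQ was called (1.70, with 4.89% of probes). From day 1 to day 2 it was ADIPOQ by 2.24, CFD by 1.82, AGT by 1.27 and RETN from below background (adjusted p = 0.0317), 4 of 5 where 1.7% of probes were called. From day 2 to day 3 CFD rose by 4.27 (4.53% of probes), its largest step, and from day 3 to day 4 by a further 1.71 (0.723%).

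From day 4 to day 5 LEP alone was called (0.146% of probes), on arrays that were all below background. From day 5 to day 6 none was called, and none had an unadjusted p under 0.05 in limma's fit (0.0691%). The call of ADIPOQ from day 0 to 1 was lost without replicate 1 (adjusted p = 0.817) and without replicate 2 (0.102), that of AGT from day 1 to 2 without replicate 1 (0.617) and without replicate 2 (0.304), and that of CFD from day 3 to 4 without replicate 1 (0.0764). The RETN step was lost without either of these replicates (adjusted p = 1 in both), without background correction (0.397), at an offset of 50 (0.0513) and without the replicate block (0.237). The LEP step was lost when any 1 of the 3 replicates was left out. The steps share their control arrays with the differences between siRNAs.

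From day −2 to day 6 all 5 transcripts were called higher under control siRNA (4.11% of probes). ADIPOQ rose at least 445-fold, CFD at least 560-fold, RETN at least 2.49-fold and LEP at least 1.23-fold, and AGT rose by 2.81 on the log2 scale, above background on both days. In the PPARγ KD 3 of the 5 were called higher (2.49% of probes), ADIPOQ at least 62.4-fold, CFD at least 90.1-fold and AGT at least 3.41-fold. RETN and LEP were not called, and all their arrays were below background on both days. Without background correction the log2 rises in control cells were 7.89 for ADIPOQ and 8.85 for CFD. In the KD they were 5.53 for ADIPOQ, 6.25 for CFD and 1.33 for AGT, and each of these rises was below its bound. The control rises of RETN (1.41) and LEP (1.02) were not below theirs. The KD cells therefore gained adiponectin and adipsin transcripts over the course, and ended below the control cells.

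The difference of the rises was tested directly and was called for 4 of the 5, where 2.09% of probes were called. The rise was smaller in the KD for CFD (adjusted p = 2.862e-07), LEP (8.733e-04), ADIPOQ (4.147e-03) and RETN (5.103e-03), and AGT was not called (adjusted p = 1). No measured size can be given, since for each of the 5 the KD arrays of day −2 were below background. Without replicate 1 or without replicate 2 only CFD was still called, the adjusted p being 1 and 0.389 for ADIPOQ, 1 and 1 for RETN, and 1 and 0.178 for LEP. LEP was also lost without the replicate block (adjusted p = 1) and without background correction (0.814).

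**Figure D3:**
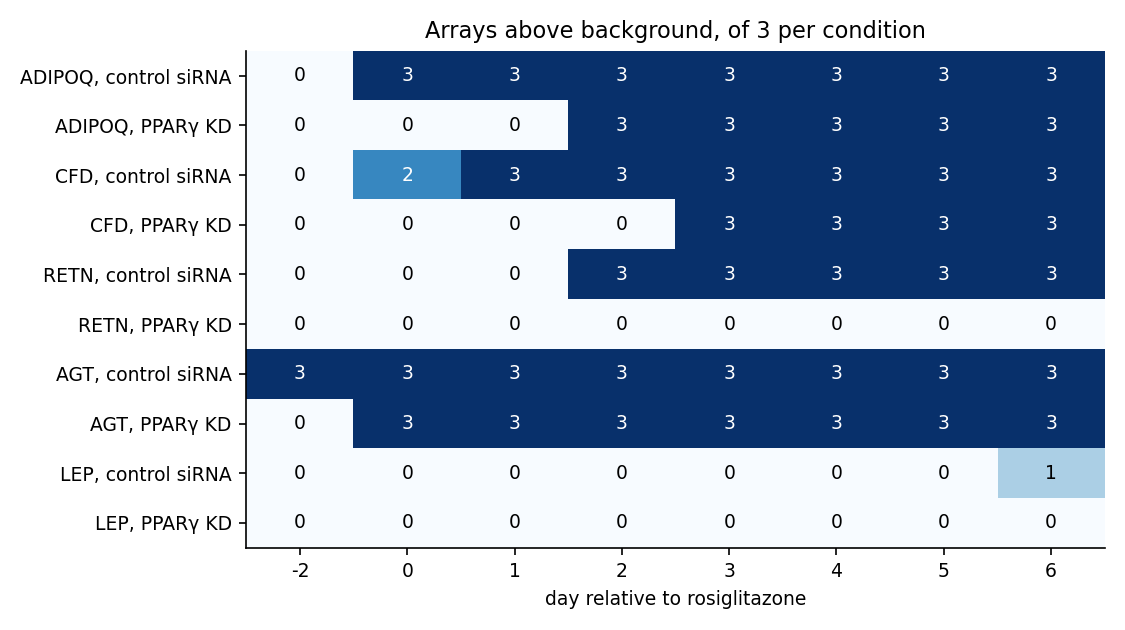
Number of arrays, of 3, on which each transcript was above background, by siRNA (rows) and day (columns); darker cells hold more arrays. ADIPOQ is first seen on day 0 in control cells and on day 2 in the KD, CFD on day 0 (2 of 3 arrays) and day 3, RETN on day 2 and never, AGT on day −2 and day 0, and LEP on 1 control array of day 6.

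Apart from their level, the 5 transcripts differed in timing. The first day above background on all 3 arrays was day −2 for AGT, day 0 for ADIPOQ, day 1 for CFD and day 2 for RETN under control siRNA, and day 0, day 2, day 3 and never in the KD. The control mean of AGT was highest in the middle of the course, at 11.45 on day 2, 10.98 on day 3 and 10.01 on day 4, and the last of these steps, −0.97, missed the threshold (adjusted p = 0.0868). That step was called with quantile normalization (0.0489), without background correction (6.709e-03), at an offset of 50 (5.962e-03), without replicate 3 (7.02e-05) and with Benjamini-Hochberg adjustment (3.392e-04). Over the 16 means of siRNA and day, Pearson's r between pairs of the 5 ran from 0.519 (CFD and AGT) to 0.887 (ADIPOQ and CFD). These means share arrays and time course. They include means of arrays below background, among them all KD means of RETN and all LEP means except that of control day 6. The r is given as a description.

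Among 9858 probes above background on at least 12 arrays, the 3 most like ADIPOQ over the 16 means were GPD1 (r = 0.991), glycerol-3-phosphate dehydrogenase, SORT1 (0.960), the sortilin receptor, and CIDEC (0.959), a lipid droplet protein. For CFD they were CAR3 (0.979), carbonic anhydrase 3, RAD51L3 and MGST2 (0.937 for both), and for AGT they were SLC5A6 (0.969), the transporter of biotin and pantothenate, 1300007F04RIK (0.963) and PANK3 (0.958), a pantothenate kinase. For RETN both probes of AQP7, the glycerol channel of adipocytes, came first (0.997 and 0.996), followed by HIPK2 (0.993), and each of these was above background on the same number of arrays as RETN, 15. LEP was above background on too few arrays to be compared. The means of all genes share the same 48 arrays.

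Over 4 lists of receptors and partners, 2 of 36 measured genes were called lower (5.56%) and 3 higher (8.33%), beside 6.74% and 6.37% of all probes. Of 6 measured genes of adiponectin reception and assembly, ADIPOR2, an adiponectin receptor, was called lower over all days (−0.90, SE 0.03, adjusted p = 1.167e-21) and none higher, with 2 lower and 2 higher at an unadjusted p under 0.05. It was above background on all 48 arrays, with means of 11.91 and 11.01, and its difference on day 6 was −1.23. Of 4 genes linked to leptin and resistin reception, 2 were called higher, LEPROT, whose transcript overlaps the leptin receptor gene and encodes a separate protein (0.30), and CAP1, a proposed receptor for resistin in human cells (0.20), and none lower by its brightest probe (1 at an unadjusted p under 0.05). That gene was TLR4, the endotoxin receptor, at −0.23 (adjusted p = 0.0811) by its brightest probe, and another TLR4 probe that was above background on all 48 arrays was called lower, at −0.24 (5.101e-04). The count of 2 became 1 when any 1 of the 3 replicates was left out. LEPR, the leptin receptor itself, was above background on no array.

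Of 12 genes of the alternative complement pathway, in which adipsin acts, 1 was called lower and none higher (2 and 1 at an unadjusted p under 0.05). It was C3, the central complement component, which was above background on all 48 arrays, with means of 12.99 and 12.39 and a difference of −0.60 (SE 0.04, adjusted p = 9.402e-12). Of 14 genes of the renin-angiotensin system, in which angiotensinogen is the substrate, none was called lower and 1 higher (5 and 4 at an unadjusted p under 0.05). That was ANPEP, an aminopeptidase that trims angiotensin peptides (0.45, SE 0.05, adjusted p = 1.466e-07). Only 3 of the 12 and 3 of the 14 were above background on at least 12 arrays. Median differences of these lists were −0.00093 (adiponectin reception and assembly), 0.06 (leptin and resistin receptors), −0.04 (complement) and −0.06 (renin-angiotensin), beside −0.03 over all probes.

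Other proteins secreted by fat cells moved in both directions. Of 55 measured of 57 listed, 13 were called lower (23.6%, beside 6.74% of all probes), 11 higher (20.0%, beside 6.37%) and 31 not called, with a median difference of −0.04. Without the replicate block 7 were called lower and 6 higher. Of the 55 genes, each read by its brightest probe, 32 were above background on at least 12 arrays, beside 9858 of all 24613 probes. NRG4, among the 13, was above background on no array. The largest falls among genes above background on at least 12 arrays were RARRES2, which encodes chemerin (−3.26), HP, haptoglobin (−2.47), ORM1, orosomucoid (−2.41), LPL, lipoprotein lipase (−1.72), ANGPTL4, an inhibitor of LPL (−1.28), and APOE, apolipoprotein E (−0.99). The second probes of HP (−2.44) and ANGPTL4 (−1.11) fell as well. The second probe of RARRES2 rose by 0.41 (adjusted p = 5.626e-05), so its probes disagree. That of LPL, above background on 1 of 24 control arrays and no KD array, was not called. By their brightest probes RARRES2 and APOE were above background on 16 and 13 of 24 KD arrays. Their differences thus rest in part on arrays below background.

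The largest rises in the KD were CCL2, a monocyte chemokine (0.82), WISP2, a secreted CCN protein (0.69), CSF1, the macrophage growth factor (0.68), LCN2, lipocalin 2 (0.65), IL18, a cytokine (0.62), and ADM, adrenomedullin (0.48). Of these 6, the difference on day 2 was 1.80 for CCL2, 1.83 for WISP2, 1.86 for CSF1, 1.76 for IL18 and 1.58 for ADM, and 0.57 for LCN2. On day 6 it was 0.45, 0.09, 0.27, 0.26 and 0.06 in the same order, and 0.49 for LCN2. Over all 5 lists 15 genes were called lower and 14 higher of 91 measured.

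**Figure D4:**
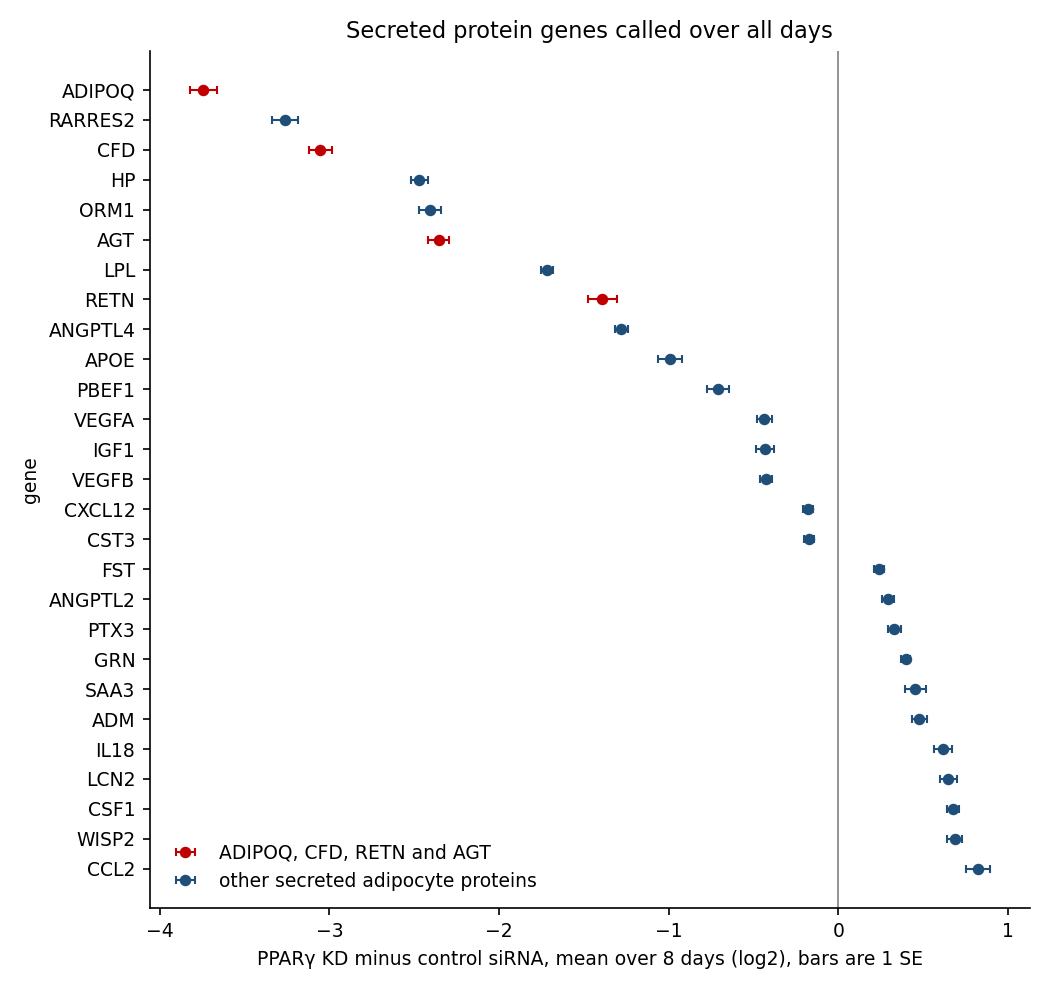
Log2 difference over the 8 days, PPARγ KD minus control siRNA (x axis), of the secreted protein genes (y axis) that were called and above background on at least 12 arrays. Points are fitted differences with bars of 1 SE. That of RETN rests wholly on KD arrays below background, and those of others, such as CFD and RARRES2, do so in part. ADIPOQ (−3.74), CFD, AGT and RETN are red and lie among the falls with RARRES2, HP and ORM1. CCL2 (0.82) is the highest of the rises.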

How the data were processed

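RNA from 3T3-L1 cells was hybridized to 48 Illumina MouseRef-8 arrays. The deposited table gives every probe's bead intensity on every array, averaged over beads by the authors in BeadStudio 3.3.7 without normalization or error model. It also holds a detection score deposited by the authors, a fraction that equals 1 minus the detection p-value, and the number of beads (another deposited value, median 35). The study's methods describe rank-invariant normalization and a 3-way ANOVA with removal of a batch effect, which are not in the deposited intensities.

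Using limma 3.58.1 under R 4.3.3, the background of the intensities was corrected by normexp (control information from the detection p-values, offset of 16). Arrays were scaled on probes from the 50th to the 90th percentile of mean signal whose rank shifted by less than 0.05 of the probes (scale factors 0.730 to 1.58), and set to log2. The offset shrinks differences of dim probes. A mean per siRNA and day plus the replicate number as a block was fitted to all 48 arrays (lmFit, eBayes). The study does not say what its batch was, and the replicate number was the block chosen here. Bonferroni adjustment was made over 24613 probes within each contrast. Array medians before scaling were 105.1 to 141.7, and no pair of arrays held identical values. The labels give the replicate numbers: deviations from condition means correlated between the arrays of each of the 24 same-numbered pairs (r 0.544 to 0.914). Between control replicate 1 and KD replicate 2 the mean r was 0.781. It was 0.707 and 0.742 within replicates 1 and 2, and 0.880 within replicate 3. The numbers thus mainly set replicate 3 apart. The columns named no slide or scan, so neither was used as a block.

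The 5 genes, the pathway lists and the markers were chosen with earlier results of these data known. Named were all 5 genes, the 6 largest falls and 6 largest rises of each list among genes called and above background on at least 12 arrays, and the 3 probes most like each gene in pattern. A listed gene stands for its brightest probe. Alternatives were quantile normalization, median scaling, no background correction, an offset of 50, a filter on probes above background on at least 3 arrays, no replicate block, the block within each day, Benjamini-Hochberg adjustment and leaving out each replicate. The fits were also run on simulated data with independent noise on each array. That noise lacks the correlation between same-numbered arrays, so the run cannot show the error rate in these data. Promoters came from RefSeq (GRCm38.p6). Figures were drawn with matplotlib 3.10.9 in Python 3.11.15. Binding data of the study were not used here.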

Additional observations from a re-analysis of the deposited data

Results flagged for a closer look

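The difference between PPARγ KD and control siRNA was not the same on all days for any of the 5 transcripts (moderated F-test, limma). The adjusted p was 3.069e-12 for ADIPOQ, 1.154e-16 for CFD, 4.179e-06 for RETN, 3.202e-05 for AGT and 2.807e-06 for LEP. The rise from day −2 to day 6 was also smaller in the KD for 4 of them, with differences of the rises of −2.05 for ADIPOQ, −2.68 for CFD, −2.18 for RETN and −1.44 for LEP on the log2 scale. These 4 are fitted values and not measured sizes, because the arrays of day −2 were below background under both siRNAs, as were all KD arrays of RETN and all arrays but 1 of LEP. Without replicate 1 or without replicate 2 the call on the rise was lost for ADIPOQ, RETN and LEP, and for LEP also without the replicate block (adjusted p = 1) and without background correction (0.814). In the F-test RETN and AGT were lost without replicate 1 or without replicate 2, and LEP without replicate 1 and without the replicate block.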

How the results depend on the processing

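Over 103 results and 1094 values under other choices, 1006 kept their direction and their side of the threshold or stayed close, 33 lost the call, 7 gained it, 48 moved and 0 reversed. The mean difference over all days was called under every alternative for ADIPOQ (−3.88 to −3.27), CFD (−3.14 to −2.55), RETN (−1.62 to −0.79) and AGT (−2.50 to −1.91), and for LEP wherever it was tested (the filter on probes above background on at least 3 arrays leaves it out). The RETN values are fitted and not measured sizes, since no KD array was above background for it. The scalings moved the median of all probes by less than 0.1.

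The replicate block mattered for small counts. With no replicate block 0 transcripts were called on day −2 and 0 in the step from day 4 to 5, the 5 lists held 9 lower and 9 higher genes, and the other secreted proteins 7 lower and 6 higher. With the block within each day, and with no background correction, 0 were called on day −2, and the latter also gave 0 from day 4 to 5, as did the filter on dim probes. With Benjamini-Hochberg adjustment 2 transcripts were called from day 2 to 3, and the lists held 27 lower and 23 higher. In the small receptor and pathway lists counts moved by 1 to 3 genes under other scalings, background settings, filters and adjustments, among them 1 lower gene for leptin and resistin reception with quantile normalization or an offset of 50. Leaving out 1 replicate at a time gave 0 to 2 transcripts on day −2, 0 to 1 from day 0 to 1, 2 to 4 from day 1 to 2, 1 to 2 from day 2 to 3, 0 to 1 from day 3 to 4, 0 to 0 from day 4 to 5, 1 to 4 for the difference of the rises and 2 to 5 in the F-test. Where the text names no cause for such a change, the cause was not tested. Signal over background limits LEP on all days, RETN in the KD and the early days of ADIPOQ and CFD.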
